A study of Homo sapiens with 2 samples.

Results

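The stomach and intestine lineage genes described here are 53 named genes in 5 subgroups: 17 lineage transcription factors, 8 mucins, 17 gastric products, 7 intestinal products and 4 CEACAM genes. They were chosen by name as genes that mark or set gastric and intestinal cell identity, and all probes that the platform annotation gives to them were read. Of the 53 genes, 49 had a probe, with 72 probes in all, among 20046 genes with a probe on the array. HNF4A, ISX, MUC5AC and MUC20 had no probe under their symbol and were not analysed here. The cells were SNU216, a human line established from gastric cancer, and their total RNA was read on Illumina expression arrays as biotin-labelled cRNA. The control group was 1 array of the line generated with a non-silencing shRNA, and the knockdown group was 1 array of the TEAD4 knockdown line. The labels used here give neither the hairpin sequence nor the number of clones, and differences between cultures, clones or arrays cannot be told apart from the knockdown. TEAD4 is a transcription factor through which the coactivators YAP and TAZ bind DNA, and the study set the knockdown against its control.

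The epithelium of the gut tube is patterned by transcription factors of the GATA, HNF4, forkhead, SOX, KLF and CDX families. SOX2 marks the stomach side of that patterning and CDX1 and CDX2 the intestinal side. Differentiated gastric cells secrete mucins, trefoil peptides, gastrokines and digestive enzymes, and parietal cells carry the proton pump. Gastric cancers often keep part of this program, lose it, or take on intestinal genes.

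There were no replicates, so no difference has a replicate check and no test between the groups was made. TEAD4 itself, by its brightest probe ILMN_1705301, had a deposited signal of 1135 in the control and 167 in the knockdown, a normalized log2 difference of -2.56. Of the dimmer TEAD4 probes, 1 passed detection in the control alone (a bound of at least 1.17-fold lower) and 1 on neither array. A probe counted as detected at a deposited detection p under 0.01, which 40.0% of 47323 probes reached in the control and 39.4% in the knockdown. All log2 differences are knockdown minus control, and each gene is read from its brightest probe. The only error that can be given is the spread between probes of the same gene: its SD was 0.31 per probe across 2497 genes with several probes detected on each array, or 0.25 for bright and 0.36 for dim probes. That spread holds no variation between cultures or arrays. Fewer cells of a type and less RNA per cell cannot be told apart in such bulk RNA.

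A minority of the lineage genes was detected in SNU216. Of the 49 genes with a probe, 17 (34.7%) were detected on at least 1 array, against 58.5% of all genes with a probe. The 17 comprised 7 of 15 transcription factors, 3 of 6 mucins, 4 of 17 gastric products, 2 of 7 intestinal products and 1 of 4 CEACAM genes. Of them 13 were detected on both arrays (FOXA1, FOXA2, FOXQ1, KLF4, SOX9, ASCL2, MUC1, MUC4, MUC16, AGR2, GAST, ANPEP and CEACAM1), 3 on the control array alone (KLF5, AGR3 and OLFM4) and 1 on the knockdown array alone (GKN2). The other 32 were detected on neither array, and the signals of their 42 probes lay between -22.3 and 33.1, below the lowest signal of a detected probe, 35.2 for control and 35.3 for knockdown. Among these 32, CAPN8, FABP1 and LIPF had a detection p under 0.05. A gene not detected here may be expressed below this limit or in a transcript that its probe does not cover.

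**Figure D1:**
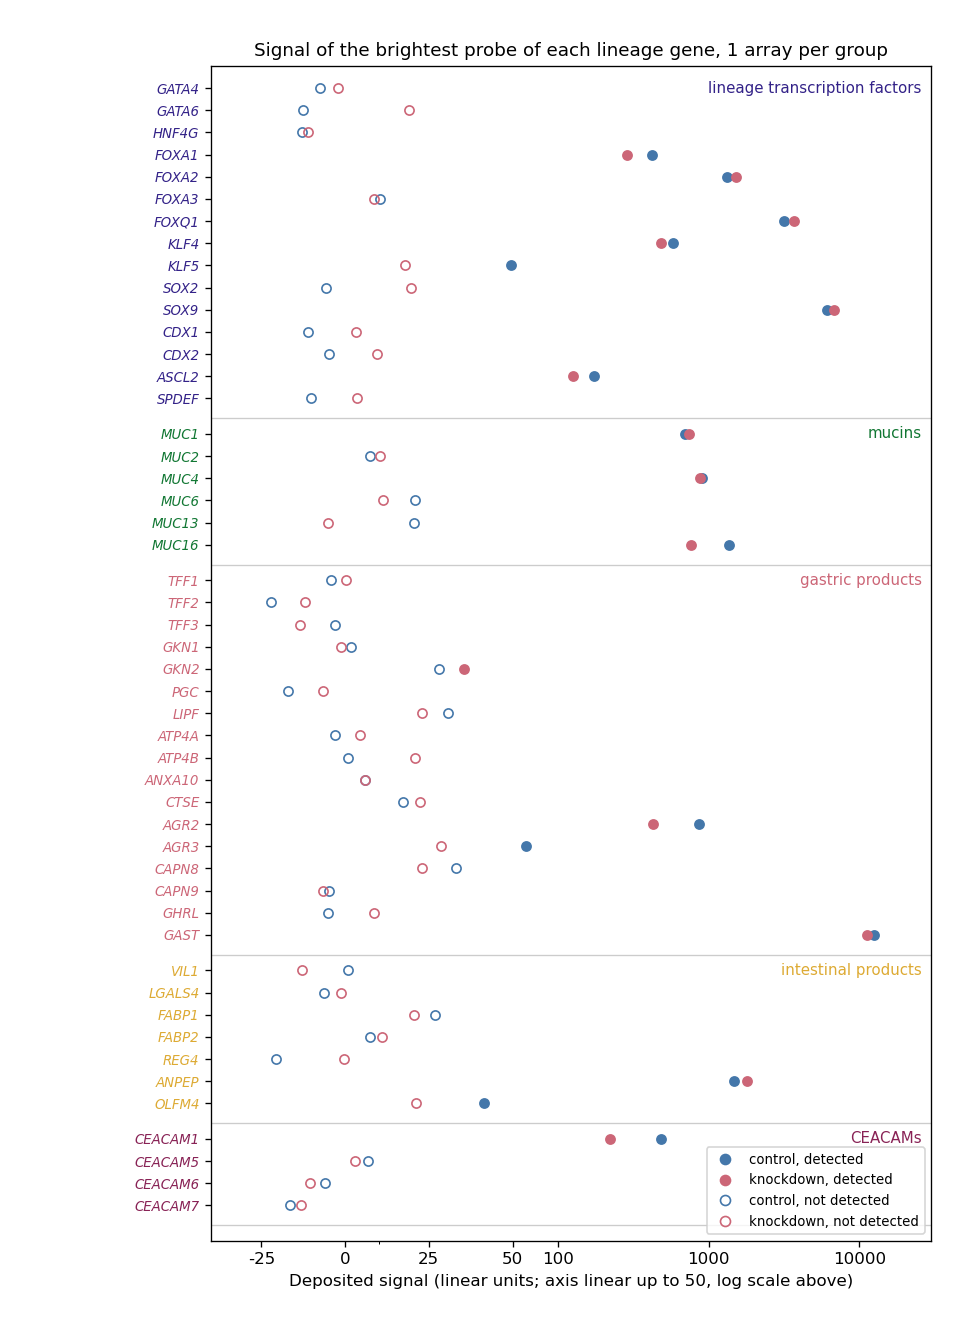
Deposited, background-subtracted signal (x axis, linear up to 50 and log scale above) of the brightest probe of each of the 49 lineage genes with a probe, in 5 blocks by subgroup. Filled points passed the detection p of 0.01 and open points did not. Most gastric and intestinal products lie near 0 on both arrays, while GAST, SOX9 and FOXQ1 are detected on both.

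Among the members detected on both arrays, differences past 1.5-fold were downward, and the others lay on both sides of 0. Of the 13 genes detected on both arrays, 3 were at least 1.5-fold lower in the knockdown, the adhesion receptor gene CEACAM1, the disulfide isomerase gene AGR2 and the membrane mucin gene MUC16, and 0 were at least 1.5-fold higher. Across all 10717 genes detected on both arrays, 7.21% were at least 1.5-fold lower and 6.0% at least 1.5-fold higher. The 3 of 13 are 23.1% of a short list chosen with earlier results of these data known, so the gap to the background is a description. None of the 13 reached 2-fold, which 1.79% of genes detected on both arrays did downward and 1.42% upward. The median difference of the 13 was -0.09, with 7 below 0 and 6 above. For all genes detected on both arrays the median was -0.03, with 53.9% below 0, so the split of the 13 lay near the background.

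Genes detected on 1 array had to differ to be counted, and only a bound can be given for them. KLF5 and AGR3 had normalized differences past 1.5-fold downward, which brings the count to 5 of 17 (29.4%) beside 9.2% of the 11720 genes detected on at least 1 array, with 0 of 17 higher beside 7.24%. Among the 1003 genes detected on 1 array only, 30.4% were at least 1.5-fold lower and 20.4% at least 1.5-fold higher. As bounds KLF5 was at least 1.24-fold lower and AGR3 at least 1.46-fold lower, so neither is shown to have reached 1.5-fold. The median over the 17 was -0.14, or -0.12 with the 4 genes detected on 1 array at their bounds, beside -0.04 for all genes detected on at least 1 array.

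**Figure D2:**
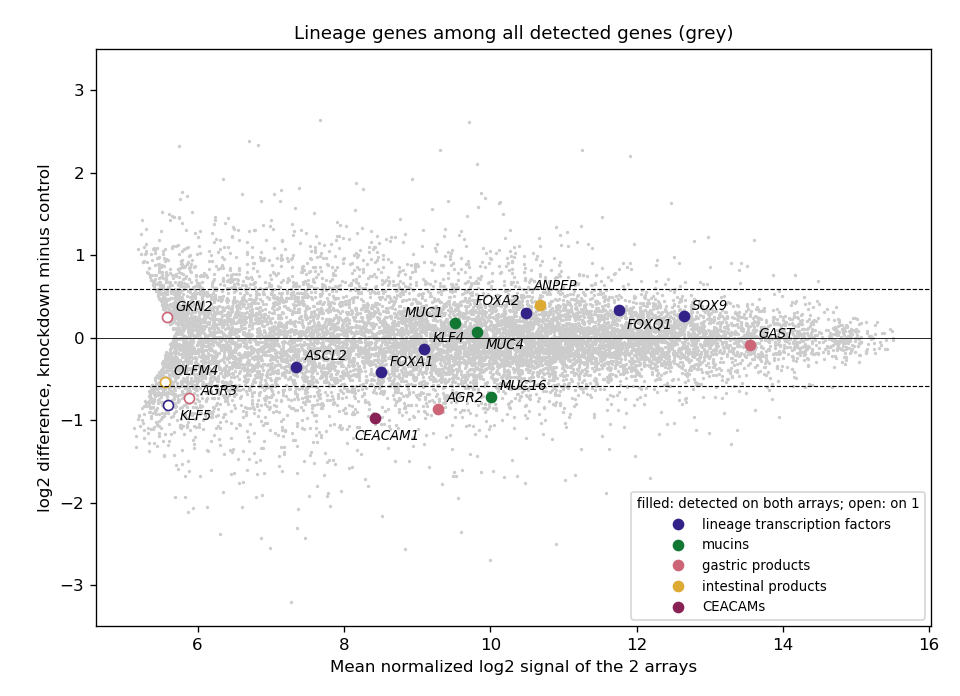
Log2 difference, knockdown minus control (y axis), against the mean normalized log2 signal (x axis) for the 11720 detected genes in grey and the 17 detected lineage genes in colour by subgroup. Dashed lines mark 1.5-fold. CEACAM1 (-0.97), AGR2 (-0.86) and MUC16 (-0.72) are the filled points below the lower line, and no lineage gene lies above the upper line.

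Promoters were read for letters of the motif that TEAD factors are known to bind, whose core is CATTCC, or GGAATG on the opposite strand. TEAD factors are known to act largely from distant enhancers, which a promoter window does not cover. The window was 250 bases before to 50 after the RefSeq gene start in GRCh38.p14, and 14 of the 17 detected members matched an entry. The core was present in 4 of the 14, CEACAM1, GAST, MUC1 and MUC4, against 14.0% of all 27305 promoters in the table. Of all members, detected or not, 40 matched an entry and 10 held the core. The forkhead core TGTTTAC, searched because FOXA1 and FOXA2 are among the detected members, was in 0 of the 14 and in 3.41% of all promoters, on either strand. The promoters of the 3 genes at least 1.5-fold lower on both arrays are shown with those of GAST and MUC1, which hold the core and differed little. They are CEACAM1 at chr19:42528432-42528731, AGR2 at chr7:16804950-16805249, MUC16 at chr19:9065702-9066001 and MUC1 at chr1:155192866-155193165, all on the minus strand, and GAST at chr17:41712081-41712380 on the plus strand. Each runs 5′ to 3′ along its gene, and capitals mark the TEAD core.
CEACAM1: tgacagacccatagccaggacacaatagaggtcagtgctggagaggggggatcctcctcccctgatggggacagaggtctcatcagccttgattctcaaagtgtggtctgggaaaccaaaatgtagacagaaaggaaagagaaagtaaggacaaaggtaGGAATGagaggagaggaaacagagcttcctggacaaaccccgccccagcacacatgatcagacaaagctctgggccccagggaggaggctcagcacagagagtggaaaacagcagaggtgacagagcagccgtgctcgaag
AGR2: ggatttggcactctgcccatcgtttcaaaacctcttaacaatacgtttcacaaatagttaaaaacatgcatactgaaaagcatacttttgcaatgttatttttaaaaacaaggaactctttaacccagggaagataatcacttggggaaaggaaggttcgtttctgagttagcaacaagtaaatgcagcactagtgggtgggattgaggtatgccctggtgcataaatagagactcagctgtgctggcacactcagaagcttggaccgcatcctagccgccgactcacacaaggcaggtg
MUC16: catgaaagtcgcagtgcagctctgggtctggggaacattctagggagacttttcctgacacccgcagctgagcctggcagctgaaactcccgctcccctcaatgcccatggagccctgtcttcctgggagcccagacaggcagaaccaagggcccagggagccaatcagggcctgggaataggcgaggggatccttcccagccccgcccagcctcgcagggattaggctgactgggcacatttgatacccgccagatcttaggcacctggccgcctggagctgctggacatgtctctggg
GAST: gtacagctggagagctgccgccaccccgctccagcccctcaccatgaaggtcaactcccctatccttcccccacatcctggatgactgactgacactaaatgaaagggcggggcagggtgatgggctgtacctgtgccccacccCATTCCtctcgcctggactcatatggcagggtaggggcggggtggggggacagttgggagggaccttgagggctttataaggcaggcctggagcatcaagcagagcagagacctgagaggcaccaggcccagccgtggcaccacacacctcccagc
MUC1: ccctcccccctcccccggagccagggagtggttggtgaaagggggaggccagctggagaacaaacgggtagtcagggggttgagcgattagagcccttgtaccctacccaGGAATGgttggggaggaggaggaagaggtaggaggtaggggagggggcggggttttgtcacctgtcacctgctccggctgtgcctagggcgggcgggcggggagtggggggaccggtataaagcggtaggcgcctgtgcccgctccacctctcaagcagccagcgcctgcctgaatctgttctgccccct
The match began 91 bases before the start in CEACAM1, 106 in GAST and 140 in MUC1, and the AGR2 and MUC16 windows hold none. GAST and MUC1 were chosen for holding the core and differing little, so nothing is read from setting them beside the lower genes, and a match describes letters, not binding.

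Of the 15 lineage transcription factors with a probe 7 were detected, and the 6 detected on both arrays differed by less than 1.5-fold, with a median of 0.06. The remaining gene, KLF5, was detected in the control alone. FOXA1, a forkhead pioneer factor of endoderm, had signals of 419.8 and 288.6 in control and knockdown and a log2 difference of -0.42. FOXA2, its close relative, went the other way by probe ILMN_1668052, from 1326.3 to 1514.6 (0.30), while its other probes were detected on neither array. The forkhead gene FOXQ1, which is known for its role in the mucous cells of the mouse stomach, went from 3176.5 to 3703.8 (0.33). By brightest probe the knockdown array was thus lower for FOXA1 and higher for FOXA2 and FOXQ1, each by less than 1.5-fold. FOXA2 and FOXQ1 differed by about the SD between probes (0.31) and FOXA1 by little more, so these directions are not secure.

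SOX9, a factor of gut progenitor cells, had signals of 6063.8 in the control and 6763.7 in the knockdown (0.26). ASCL2, a factor of intestinal stem cells and a Wnt target, had 172.7 and 125.2 (-0.35). The Krüppel-like factor KLF4, linked to differentiation of surface epithelium, was read by 2 detected probes, which gave 578.2 and 485.5 (-0.14) and 574.0 and 399.1 (-0.41). Both probes were lower in the knockdown, and the gap between their differences was smaller than the SD between probes. KLF5, which is linked to proliferating gut epithelium, was dim, with 49.5 in the control and 18.0 in the knockdown, where it was not detected.

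SOX2, which marks the stomach side, and CDX1 and CDX2, which mark the intestinal side, were not detected on either array. GATA4, GATA6, HNF4G, FOXA3 and SPDEF, a factor of goblet and other mucous cells, were not detected either. The highest signal of these undetected factors was that of SOX2, 19.6 in the knockdown. HNF4A and ISX had no probe. GATA6 had -12.7 and 19.0 in control and knockdown, both under the detection limit, so its normalized difference has no order.

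From a further list of 25 gut and epithelial transcription factors, 22 had a probe and 9 were detected, all of them on both arrays. The median of these 9 was 0.05, 1 was at least 1.5-fold higher and 0 lower. The epithelial factors ELF3 (-0.19), GRHL2 (-0.27) and EHF (0.24) were among the detected. The gene past 1.5-fold was KLF3, a repressor of the Krüppel-like family, at 0.71 by its brightest probe ILMN_1670245. A dimmer KLF3 probe, ILMN_2048507, detected in the control alone, was at least 1.74-fold lower, so its probes disagree and no direction is given for this gene.

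Of the mucins, 3 membrane-bound members were detected and 1 differed by more than 1.5-fold. MUC16, the large membrane mucin that carries the CA125 antigen, had signals of 1362.5 in the control and 763.9 in the knockdown, 1.65-fold lower (-0.72), by its only probe. MUC1, a membrane mucin of most glandular epithelia, differed by 0.17 at its brightest probe (697.1 and 735.7) and by -0.09 at ILMN_2371911 (339.8 and 294.7). MUC4, another membrane mucin, differed by 0.06 at its brightest probe, with 900.8 and 871.4. MUC16 therefore stood lower on the knockdown array while the brightest MUC1 and MUC4 probes were near equal. The dimmer MUC4 probes went both ways: ILMN_1792039 was detected in the control alone (52.9 against 35.0) and ILMN_1727314 in the knockdown alone (38.0 against 19.9).

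The gel-forming mucins with a probe were not detected, neither MUC2 of intestinal goblet cells by 1 probe nor MUC6 of deep gastric glands by any of its 4. MUC13, a membrane mucin of the intestine, was not detected either, with 20.5 and -5.1. From a further list of other mucins and genes that help build mucin-type glycans, 17 of 18 genes had a probe. Of the 17, 8 were detected, none of them a mucin and all on both arrays. Of these 8, 7 were lower in the knockdown and 1 higher, with a median of -0.50, and 1 was past 1.5-fold downward with 0 upward. Among all genes detected on both arrays 53.9% were below 0, with a median of -0.03. That gene was FUT3, the fucosyltransferase that makes Lewis antigens, with 205.8 in the control against 81.4 (-1.13). FUT2, the secretor fucosyltransferase (-0.55), GCNT1, which makes the core branch of O-glycans (-0.52), GALNT12, which attaches the first sugar (-0.51), and C1GALT1, which extends it (-0.50), were lower by less than 1.5-fold. GALNT4 (0.57) was the exception in direction. This list too was chosen with earlier results of these data known.

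Gastric products were almost absent, apart from gastrin and the AGR genes. GAST, the gene of the acid-stimulating hormone gastrin, normally made by G cells of the antrum, had signals of 12606 in the control and 11262 in the knockdown (-0.09). It was detected on both arrays at nearly equal level by its only probe. AGR2, a disulfide isomerase that mucous cells need to make mucins, had 857.0 and 428.2, 1.82-fold lower (-0.86), by its brightest probe. A dimmer AGR2 probe, ILMN_1814151, had 122.4 and 69.2 (-0.65), so both probes were past 1.5-fold in the same direction in the main processing. In the deposited normalized signals the dimmer probe differed by -0.39, under 1.5-fold, and the brightest by -0.80.

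AGR3, the paralog of AGR2, had 61.2 in the control and 28.6 in the knockdown, where it was not detected, by probe ILMN_1728787, and its other probe was detected on neither array. AGR2 and AGR3 lie next to each other on chromosome 7, with 0 protein-coding genes between them in the RefSeq table. GKN2, a gastrokine of surface mucous cells, passed the threshold in the knockdown alone with a detection p of 0.00931, at 35.4 against 28.0 in the control, a bound of at least 1.03-fold. That signal lies at the detection limit, so expression of GKN2 rests on a value just past the threshold.

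The remaining 13 gastric products were not detected. They were the trefoil peptides TFF1, TFF2 and TFF3, the gastrokine GKN1, the pepsinogen PGC and the lipase LIPF of the gastric glands, and both proton pump subunits ATP4A and ATP4B of parietal cells. ANXA10, CTSE, CAPN8, CAPN9 and the ghrelin gene GHRL were the others. LIPF (30.9 and 23.0) and CAPN8 (33.1 and 22.9) came closest to the threshold, both in the control.

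A further list of 18 stomach genes gave the same picture, with 5 detected and 13 not, among the latter the stomach claudin CLDN18, read by 4 probes. SOSTDC1, a secreted antagonist of BMP and Wnt signals, was the only gene of that list past 1.5-fold, with signals of 301.3 and 110.5 (-1.27). A probe listed for PGA3 was detected on both arrays (0.01), but pepsinogen A genes are near-identical copies, so its signal cannot be assigned to a particular copy.

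**Figure D3:**
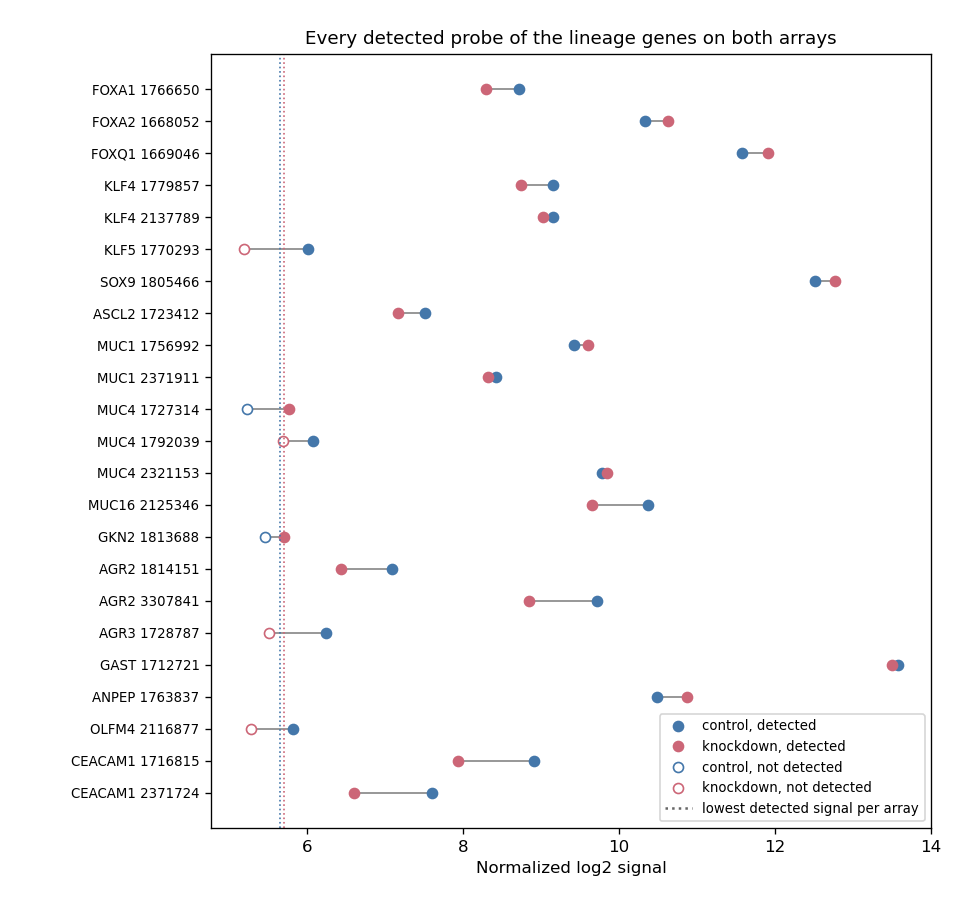
Normalized log2 signal (x axis) in the control and the knockdown for each detected probe of the lineage genes (y axis, gene and probe number), with open points where the probe was not detected on that array and dotted lines at the lowest detected signal of each array. Both detected probes of CEACAM1 and both of AGR2 are lower in the knockdown, whereas the GAST points nearly coincide.

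Intestinal products were represented by ANPEP. This gene of aminopeptidase N, a brush border enzyme also made by other cell types, had signals of 1469.2 in the control and 1796.5 in the knockdown (0.39), the highest difference among the 13 members detected on both arrays and under 1.5-fold. OLFM4, a secreted glycoprotein of intestinal crypts, had 41.5 and 21.1 by probe ILMN_2116877 and was detected in the control alone, at least 1.09-fold lower, while its other probe was detected on neither array. VIL1, the actin bundler villin of the brush border, the lectin LGALS4, the fatty acid binding proteins FABP1 and FABP2, and REG4 were not detected. Of 37 further intestine genes with a probe 3 were detected and 34 were not, with 0 past 1.5-fold by the brightest probe. The 3 were ALPI, an alkaline phosphatase of the intestine (0.09, near the detection limit), the stem cell surface protein PROM1 (-0.40) and the microvillus bundler PLS1 (-0.54). A dimmer PLS1 probe, ILMN_1759206, was also detected on both arrays and lay at the 1.5-fold line (-0.585).

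CEACAM genes encode surface adhesion proteins of the immunoglobulin family, and CEACAM5 encodes the carcinoembryonic antigen. CEACAM1, the broadly expressed member of this set with an inhibitory signalling tail, had signals of 483.9 in the control and 221.0 in the knockdown, 1.96-fold lower (-0.97), by its brightest probe ILMN_1716815. Probe ILMN_2371724 had 183.0 and 80.3 (-0.99), and a remaining probe, ILMN_1664330, was detected on neither array. In the main processing both detected probes thus gave nearly the same difference, just short of 2-fold. In the deposited normalized signals the brightest probe differed by -0.814 and ILMN_2371724 by -0.635, both still past 1.5-fold. CEACAM5, CEACAM6 and CEACAM7 were not detected, with 6.7 (CEACAM5, control) as their highest signal. Among 7 further CEACAM genes with a probe, CEACAM21 alone was detected, at 37.6 in the control and 59.5 in the knockdown (0.53). CEACAM genes are similar in sequence, and cross-hybridization among their probes was not tested.

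Other markers place these values in their setting. Of 12 epithelial genes with a probe 9 were detected, EPCAM, KRT8 and KRT19 among them, with a median of -0.04, and KRT18, ESRP2 and OCLN were not. In the control the brightest KRT18 probe had a signal of 15.8, beside 30684 for KRT8. Whether the KRT18 probes read its transcript was not tested, so its absence is not shown. CDH1 (0.66) was at least 1.5-fold higher, and KRT7 (-0.73) and CLDN3 (-0.69) lower. Of 7 leukocyte markers with a probe 3 were detected, and their list summed to signals of 1120 in the control against 1948, most of it from CD68 on both arrays. CD68, a lysosomal protein of macrophages that other cell types also make, was higher by both detected probes, with 888 and 1791 (1.10) at the brighter. A remaining CD68 probe was detected on neither array. ITGAM, an integrin of myeloid cells, was lower, with 177.8 and 104.7 (-0.63), and the B cell gene MS4A1 passed detection in the knockdown alone, at least 1.03-fold higher. The defining leukocyte genes PTPRC and CD3E were not detected. Of 6 endothelial markers ESAM alone was detected, with 202.9 and 100.5 (-0.85), while PECAM1, VWF, CDH5, KDR and TEK were not. Of 8 fibroblast markers 5 were detected, and LUM, FBLN1 and DCN were at least 1.5-fold lower by normalized difference. Among all genes detected on at least 1 array 9.2% were. LUM and DCN were detected in the control alone. Their bounds were at least 2.41-fold and 1.21-fold lower, so DCN is not shown to have reached 1.5-fold. COL1A1 (-0.29) and COL1A2 (0.06) differed less. The signals of the list summed to 892 in the control against 287, most of it from FBLN1. COL3A1, PDGFRB and THY1 were not detected. The part of these markers in the lower AGR2, MUC16 and CEACAM1 signals was not tested.

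The differences of MUC16 and AGR2 changed little with processing, while CEACAM1 and FOXA2 changed most when undetected probes were averaged in. Over all settings tried, MUC16 lay between -0.80 and -0.68 and AGR2 between -0.95 and -0.76. CEACAM1 lay between -1.06 and -0.60, where the smallest value came from averaging in its undetected probe. The same averaging took FOXA2 from 0.3 to 0.09. The dim genes moved more: KLF5 ranged from -1.41 to -0.31, AGR3 from -1.04 to -0.34 and OLFM4 from -0.92 to -0.12. Among those near 0, MUC4 ranged from -0.02 to 0.08 and so changed sign.

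**Figure D4:**
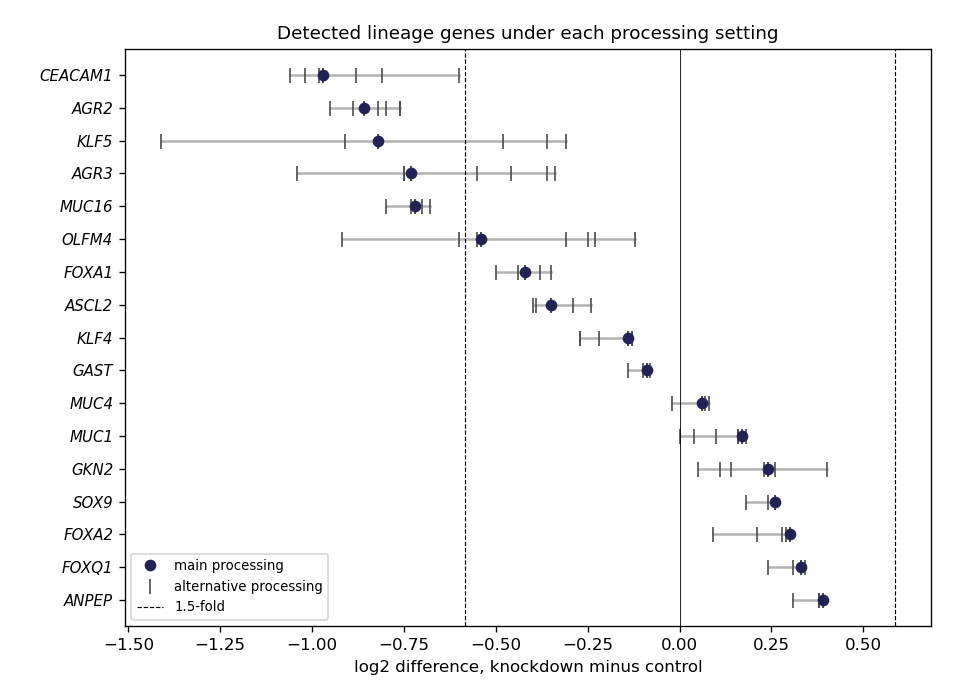
Log2 difference, knockdown minus control (x axis), of the 17 detected lineage genes under the main processing (points) and each alternative (ticks), with dashed lines at 1.5-fold. MUC16, AGR2 and CEACAM1 stay past 1.5-fold downward under each setting, whereas KLF5, AGR3 and OLFM4 cross the line.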

How the data were processed

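The groups of 1 array each were compared. The deposited intensity values are linear and already background-subtracted, since 12861 and 12895 of 47323 probes are below 0. Per the file headers, each signal comes with a detection p-value. The other deposited intensity table is quantile normalized: sorted, its columns are at most 0.0019 apart in log2. Its target distribution is unknown. It is not centred, its column medians are 118.7 and 118.7, and 1-colour signals have no direction. The software used by the authors is not given in the sources used here. Signals were normalized with neqc (limma 3.58.1, R 4.3.3; offset 16, quantile, log2), which was also tested on simulated data. The offset and the deposited table's higher floor shrink differences of dim probes. The annotation gives 1 symbol to 30113 probes, several to 8 and does not list 17202. Of the 30113, 30074 matched RefSeq (GRCh38.p14) by Entrez identifier. A bound divides the brighter signal by the dim one, or by the lowest detected signal of that array where this is higher. Every member is accounted for; of the further lists, up to 2 genes per direction past 1.5-fold were named, and other genes of these lists were named after their values were seen. Members and lists were chosen with earlier results of these data known. No test was run because there is 1 array per group, which limits the precision.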

Additional observations from a re-analysis of the deposited data

How the results depend on the processing

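The 17 detected members became 20 at a detection p under 0.05 and 13 when detection on both arrays was asked for. The count of members at least 1.5-fold lower, 5 in the main processing, was 3 (MUC16, AGR2 and CEACAM1) with a neqc offset of 50, in the deposited normalized table, with detection on both arrays, and with probes detected on 1 array at their bound, an alternative chosen after seeing the data. It was between 4 and 6 under the other settings. The count of members at least 1.5-fold higher was 0 except without a detection filter, where it was 2 (GATA6 and SOX2, neither of them detected). The median over members ranged from -0.27 to -0.09 and was 0.04 without the filter. Of 183 values of single members under the 11 alternatives, 9 moved by more than the SD between probes (0.31), all of them of KLF5, AGR3, OLFM4 or CEACAM1, and 0 members past 1.5-fold changed sign. Many of the 183 could not move. A changed detection filter leaves the value of a member as it is, and averaging leaves genes with a single probe unchanged. The bound leaves genes detected on both arrays unchanged. The share that moved is therefore no measure of robustness. The SD between probes served as the tolerance. No paired analysis was possible because the groups hold a single array each, so no replicate could be left out either.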

Other observations

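Among neuroendocrine markers, the cell class that makes gastrin, 3 of 5 genes were detected. SYP, which encodes the vesicle protein synaptophysin, had signals of 7.48 in the control and 83.8 in the knockdown, where alone it was detected, at least 2.01-fold higher. CHGA, the granule protein chromogranin A, was detected in the control alone (42.5 against 16.6), at least 1.10-fold lower, and the transcription factor INSM1 was near equal at 73.4 and 70.7. GAST was near equal as well. Of the 6 squamous and basal epithelial markers with a probe, KRT13, a keratin of internal squamous epithelia, was the only gene detected, with 321.8 in the control and 96.2 in the knockdown (-1.52). KRT5, KRT14, KRT4, DSG3 and IVL were not detected. Of 6 hepatocyte markers, ALB (0.11) and SERPINA1 (-0.18) were detected and differed little.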
